A study of Mus musculus with 4 samples.

Results

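The Sox transcription factors of the sensory epithelium were followed through the RNA-Seq comparison of Lgr5+ and Lgr6+ progenitors. They comprise 10 genes, *Sox2*, *Sox4*, *Sox5*, *Sox6*, *Sox8*, *Sox9*, *Sox11*, *Sox12*, *Sox13* and *Sox21*, which were found by gene symbol among the 23997 genes of the deposited table. At postnatal day 3, EGFP+ cells were isolated by flow cytometry from cochleae of the Lgr5-EGFP-IRES-CreERT2 line to give the Lgr5+ cells, and from those of the Lgr6-EGFP-IRES-CreERT2 line to give the Lgr6+ cells. The labels give C57BL/6 as the strain and list 2 libraries for each population. The methods instead state that the RNA of each population was divided into 3 fractions, so replicates share their extraction and how many libraries the deposited values combine is unclear. The labels name no treatment, and in both lines the reporter stands in the Lgr locus itself, so the sort depends on the activity of that locus in living cells. The table holds 1 combined FPKM value (fragments per kilobase of transcript, scaled by sequencing depth) per gene and population. The spread between libraries is thus not known, no difference given here can be checked between libraries, and no *p*-value is given. For some genes, among them *Sox4*, *Hes5* and *Hey2*, the paper also ran q-PCR on sorted cells and describes the outcome as matching its RNA-Seq.

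SOX proteins bind DNA through an HMG box, which inserts into the minor groove and bends the double helix, and they act mostly together with partner factors. They are sorted into groups by the sequence of this box. *Sox2* is a SoxB1 gene and *Sox21* a SoxB2 gene. *Sox4*, *Sox11* and *Sox12* form SoxC, *Sox5*, *Sox6* and *Sox13* form SoxD, and *Sox8* and *Sox9* belong to SoxE with *Sox10*. In the inner ear *Sox2* specifies the prosensory domain and later marks the supporting cells (SCs), from which hair cells (HCs) can be regenerated in the newborn cochlea. SoxC factors promote the differentiation of progenitors, and SoxE factors act from the otic placode onward.

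The coding sequence of the HMG box is shown for 6 of the genes, because it defines the groups and because likeness between members bears on how reads are assigned. The stretch of 79 codons, or 237 bases, was located in the longest GENCODE M1 transcript of each gene that contains the whole box. Each line runs 5′ to 3′ and capitals mark the 85 bases that are the same in all 10 genes.
*Sox2*: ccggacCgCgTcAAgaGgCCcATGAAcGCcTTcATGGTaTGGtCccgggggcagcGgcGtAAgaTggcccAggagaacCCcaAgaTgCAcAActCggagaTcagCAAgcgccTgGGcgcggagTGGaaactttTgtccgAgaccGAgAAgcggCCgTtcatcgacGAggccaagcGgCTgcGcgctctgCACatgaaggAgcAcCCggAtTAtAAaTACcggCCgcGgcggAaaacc
*Sox21*: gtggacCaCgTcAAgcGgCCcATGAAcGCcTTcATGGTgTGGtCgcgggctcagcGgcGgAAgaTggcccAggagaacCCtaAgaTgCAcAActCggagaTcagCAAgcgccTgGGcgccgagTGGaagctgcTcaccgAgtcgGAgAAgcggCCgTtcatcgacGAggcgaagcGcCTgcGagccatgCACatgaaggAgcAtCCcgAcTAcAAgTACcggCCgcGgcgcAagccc
*Sox4*: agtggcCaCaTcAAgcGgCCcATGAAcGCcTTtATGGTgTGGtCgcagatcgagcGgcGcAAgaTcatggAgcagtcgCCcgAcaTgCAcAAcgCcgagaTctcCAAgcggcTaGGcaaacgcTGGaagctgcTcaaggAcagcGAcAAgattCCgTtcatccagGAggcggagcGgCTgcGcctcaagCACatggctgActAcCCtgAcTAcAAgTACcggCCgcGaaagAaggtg
*Sox11*: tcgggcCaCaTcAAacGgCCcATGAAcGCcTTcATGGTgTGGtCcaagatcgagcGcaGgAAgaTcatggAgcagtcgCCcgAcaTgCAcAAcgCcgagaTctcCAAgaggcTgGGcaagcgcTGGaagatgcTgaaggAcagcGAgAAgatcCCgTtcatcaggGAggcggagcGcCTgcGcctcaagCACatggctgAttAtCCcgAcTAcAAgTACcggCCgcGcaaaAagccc
*Sox5*: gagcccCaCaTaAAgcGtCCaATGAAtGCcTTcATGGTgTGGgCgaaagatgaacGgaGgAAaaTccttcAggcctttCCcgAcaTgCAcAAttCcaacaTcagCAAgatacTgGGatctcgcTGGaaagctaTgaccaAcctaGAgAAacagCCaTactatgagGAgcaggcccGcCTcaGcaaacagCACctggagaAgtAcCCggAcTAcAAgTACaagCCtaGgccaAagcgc
*Sox9*: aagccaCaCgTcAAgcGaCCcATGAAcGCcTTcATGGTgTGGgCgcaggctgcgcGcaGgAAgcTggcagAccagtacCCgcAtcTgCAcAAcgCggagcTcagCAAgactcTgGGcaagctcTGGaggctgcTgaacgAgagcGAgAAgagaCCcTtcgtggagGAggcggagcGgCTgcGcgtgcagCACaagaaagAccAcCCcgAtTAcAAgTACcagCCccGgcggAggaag

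Between members of the same group, 7 pairs in all, the box was identical at 80.6% to 88.2% of its bases, with a median of 83.5%. The other 38 pairs ranged from 53.2% to 86.9%, with a median of 63.9%. *Sox4* and *Sox11* were the closest pair at 88.2%, and *Sox2* and *Sox21* followed at 86.9% although they are counted here in separate groups. Over the whole of these transcripts the longest run of bases shared without a mismatch was 48 bases, between *Sox4* and *Sox11*, and *Sox2* shared at most 38 bases in a row with *Sox21*. The reads that the paper describes are, before trimming, longer than these runs. The *Sox11* transcript used has 2013 bases, while its interval in the table spans 8451, so the rest of it was not compared. How the authors' counting divided fragments that match more than 1 Sox gene is not given in the sources used here.

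The 10 genes together had a summed FPKM of 413 in the Lgr5+ cells and 212 in the Lgr6+ cells, so the sum was 1.95 times as high in the Lgr5+ cells. Of the 10 genes, 8 had the higher value in the Lgr5+ cells and 2 in the Lgr6+ cells. All 10 genes passed the filter on low values, which asked that a gene reach an FPKM of 1 in one population or the other, and all 10 reached it in both. The difference of a gene is given as its log2(FPKM + 1) in the Lgr6+ cells minus that in the Lgr5+ cells, a scale on which the added 1 understates the difference of low genes. *Sox2*, *Sox4*, *Sox5*, *Sox11*, *Sox12* and *Sox13* were at least 1.5-fold higher in the Lgr5+ cells on this scale, 6 of 10, and 0 of the 10 were at least 1.5-fold higher in the Lgr6+ cells. Among the 13436 genes that passed the filter, 23.3% were higher in the Lgr5+ cells by 1.5-fold and 28.5% were higher in the Lgr6+ cells. At 2-fold, *Sox2*, *Sox4* and *Sox5* were higher in the Lgr5+ cells, 3 of 10 against 11.7% of all kept genes, and 0 of 10 were higher in the Lgr6+ cells against 18.2%. The median difference of the 10 genes was -0.76 and that of all kept genes was 0.03.

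**Figure D1:**
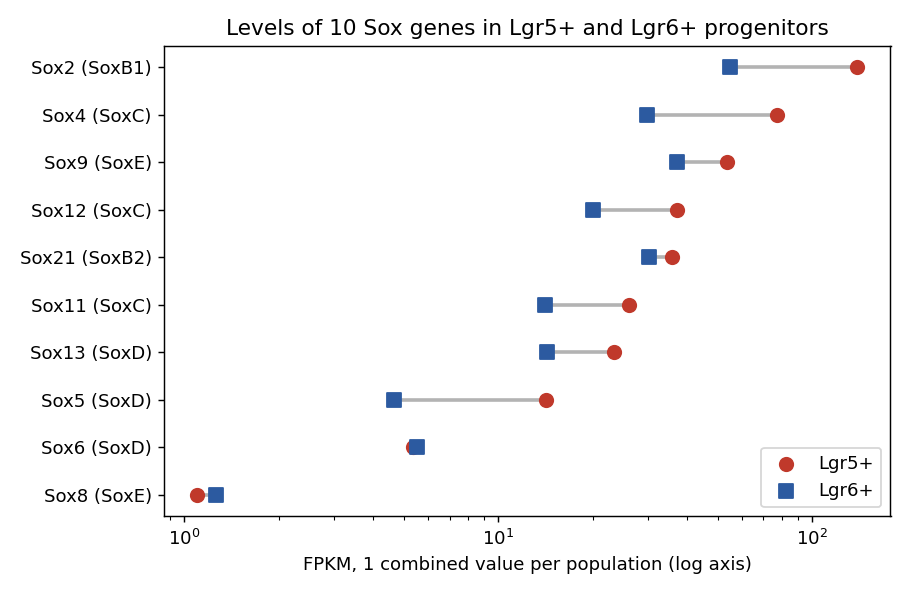
FPKM of the 10 Sox genes on a logarithmic axis, with a circle for Lgr5+ cells and a square for Lgr6+ cells, each 1 combined value without an error. *Sox2* stands highest in both populations, at 139.6 and 54.8, and the squares lie left of the circles for 8 of the 10 genes.

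**Figure D2:**
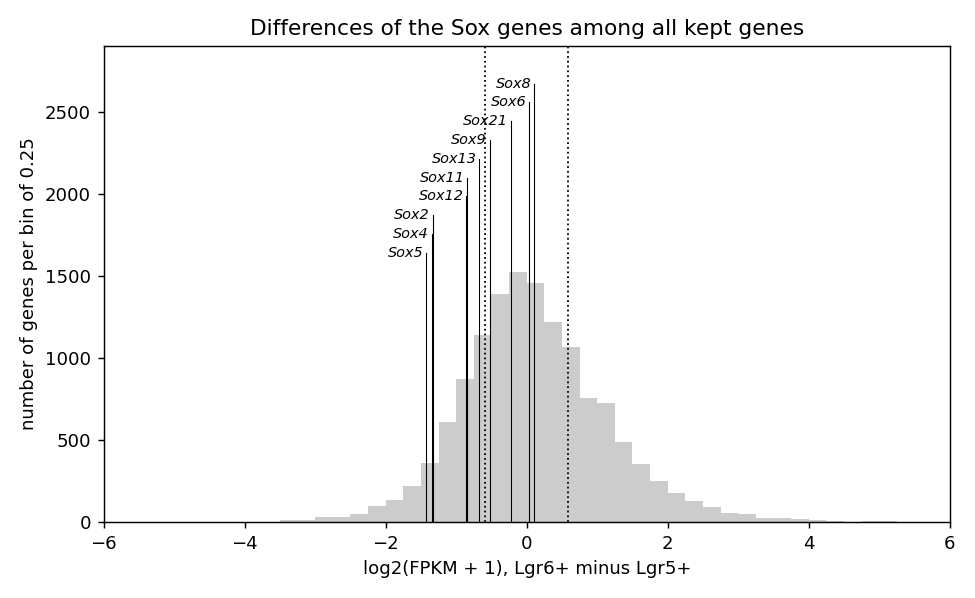
Number of kept genes, in bins of 0.25, by the difference in log2(FPKM + 1), Lgr6+ minus Lgr5+, with a vertical line for each Sox gene and dotted lines at 1.5-fold in either direction. The 10 genes lie between -1.43 for *Sox5* and 0.11 for *Sox8*, and 6 of them lie left of the lower dotted line.

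*Sox2*, the prosensory factor and SC marker that the study used to characterize its sorted cells, was the most abundant of the 10 genes in both populations. Its FPKM was 139.6 in the Lgr5+ cells and 54.8 in the Lgr6+ cells, a difference of -1.33. By level it stood at percentile 94.0 of the kept genes in the Lgr5+ cells and at percentile 87.2 in the Lgr6+ cells, so it was well expressed in both. Of all kept genes, 6.16% differed at least as far toward the Lgr5+ cells. In the deposited table *Sox2* carries the interval from 34560381 to 34677993 on chromosome 3 (GRCm38), which is that of the long noncoding RNA *Sox2ot*. RefSeq places the *Sox2* gene itself from 34649995 to 34652461, inside *Sox2ot*. *Sox2ot* had an FPKM of 0.924 in the Lgr5+ cells and 1.06 in the Lgr6+ cells, far below *Sox2*, and the libraries are not stated to keep strand.

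*Sox21* encodes a SoxB2 factor that acts mainly as a repressor on targets it shares with the SoxB1 factors. Its FPKM was 35.7 in the Lgr5+ cells and 30.3 in the Lgr6+ cells (chromosome 14, 118233234 to 118237030), a difference of -0.23, which turned to 0.03 when both populations were scaled to the same sum. *Sox2* and *Sox21* thus differed by unequal amounts between the populations. *Sox21* was at 25.6% of the *Sox2* value in the Lgr5+ cells and at 55.2% in the Lgr6+ cells. A ratio within 1 population does not depend on how the populations are scaled to each other.

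The 3 SoxC genes, transcriptional activators of progenitors and immature neurons, were all at least 1.5-fold higher in the Lgr5+ cells. *Sox4* (chromosome 13, 28950730 to 28953682) had an FPKM of 77.0 in the Lgr5+ cells and 29.7 in the Lgr6+ cells, a difference of -1.35. *Sox11* (chromosome 12, 27334268 to 27342718) had 26.1 and 14.1, a difference of -0.84. *Sox12* (chromosome 2, 152393612 to 152398046) had 37.03 and 19.99, a difference of -0.86. *Sox11* and *Sox12* were therefore 1.85 times as high in the Lgr5+ cells, whereas *Sox4* was 2.59 times as high. *Sox4* kept nearly the same proportion to *Sox2*, 55.2% in the Lgr5+ cells and 54.2% in the Lgr6+ cells. The interval of *Sox4* in the table spans 2953 bases, while RefSeq gives the gene 4781 bases. The FPKM of *Sox4* and its place among the other genes depend on that length, which is the same for both populations. At the protein level, the paper saw Sox4 staining in all SCs, with no obvious difference between Deiters' cells and inner pillar cells. It adds that staining does not measure the amount of protein accurately.

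The SoxD factors lack an activation domain of their own and modulate the binding of other SOX proteins. *Sox5* (chromosome 6, 143828425 to 144209568) had an FPKM of 14.2 in the Lgr5+ cells and 4.65 in the Lgr6+ cells. Its difference of -1.43 was the farthest toward the Lgr5+ cells among the 10 genes. *Sox13* (chromosome 1, 133382300 to 133424212) had 23.4 and 14.4, a difference of -0.67 that became -0.43, under 1.5-fold, with equal sums. *Sox6* (chromosome 7, 115470872 to 116038744) had 5.37 in the Lgr5+ cells and 5.53 in the Lgr6+ cells, a difference of 0.04, which changed sign after quantile normalization. The values of *Sox5* and *Sox6*, which act redundantly in cartilage, hence stood in opposite order in the populations. The level of *Sox5* was 2.64 times that of *Sox6* in the Lgr5+ cells and 0.841 times that of *Sox6* in the Lgr6+ cells. The Lgr6+ values, 4.65 and 5.53, are low and close, and without a spread their order cannot be told. The interval of *Sox5* in the table spans 381144 bases, while RefSeq gives the gene 953863 bases.

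Of the SoxE genes, *Sox9* drives the formation of cartilage and the early otic placode. It had an FPKM of 53.8 in the Lgr5+ cells and 37.1 in the Lgr6+ cells (chromosome 11, 112782210 to 112787757), a difference of -0.52 that did not reach 1.5-fold. *Sox8* (chromosome 17, 25565893 to 25570686), which overlaps with *Sox9* and *Sox10* in function, was the lowest of the 10 genes, with 1.10 in the Lgr5+ cells and 1.27 in the Lgr6+ cells. Its difference of 0.11 changed sign after quantile normalization. *Sox10*, the SoxE factor of the otic epithelium and of neural crest glia and melanocytes, is not among the 10 genes. It had 39.5 in the Lgr5+ cells and 50.5 in the Lgr6+ cells, a difference of 0.35. *Sox9* was 1.36 times as high as *Sox10* in the Lgr5+ cells and 0.736 times as high in the Lgr6+ cells. The sum of *Sox8*, *Sox9* and *Sox10* was 94.4 in the Lgr5+ cells and 88.9 in the Lgr6+ cells, so the SoxE total was closer between the populations than the SoxC total of 140.2 and 63.8.

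As shares of the summed FPKM of the 10 genes, *Sox2* made up 33.8% in the Lgr5+ cells and 25.9% in the Lgr6+ cells. *Sox4* made up 18.6% and 14.0%. *Sox9* made up 13.0% and 17.5%, and *Sox21* 8.63% and 14.3%, so the shares of these genes were the larger ones in the Lgr6+ cells. In order of level, *Sox2* was followed by *Sox4*, *Sox9*, *Sox12* and *Sox21* in the Lgr5+ cells, and by *Sox9*, *Sox21*, *Sox4* and *Sox12* in the Lgr6+ cells. The values of *Sox21* and *Sox4* in the Lgr6+ cells, 30.3 and 29.7, and those of *Sox12* and *Sox21* in the Lgr5+ cells, 37.03 and 35.7, are close, and without a spread their order cannot be told. *Sox8*, *Sox6* and *Sox5* were the 3 lowest genes in both populations.

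**Figure D3:**
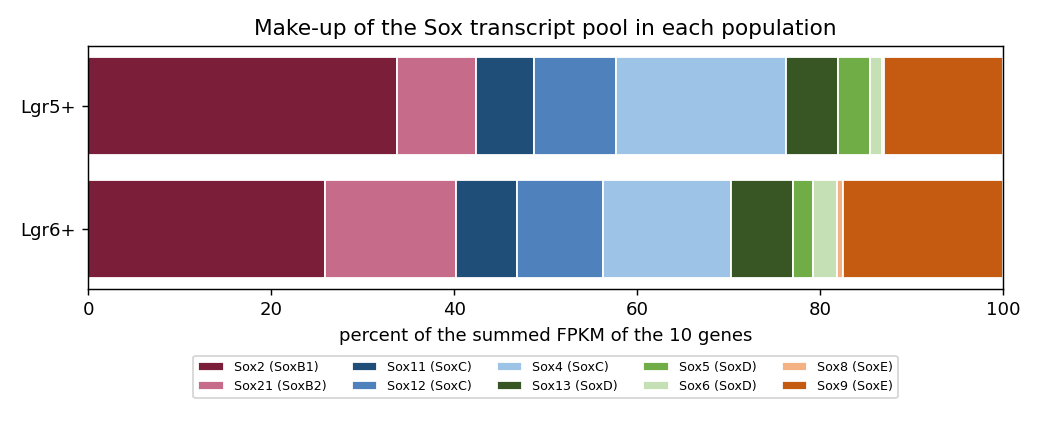
Share of each gene in the summed FPKM of the 10 Sox genes, in percent, with 1 bar for each population. *Sox2* takes 33.8% of the Lgr5+ bar and 25.9% of the Lgr6+ bar, while *Sox9* takes 13.0% and 17.5%.

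The table holds 10 further Sox genes, of which *Sox10*, *Sox17* and *Sox18* passed the filter. The SoxF genes *Sox7*, *Sox17* and *Sox18* act in the endothelium of blood and lymph vessels. *Sox18* (chromosome 2, 181669837 to 181671640) was listed at 0 in the Lgr5+ cells and had an FPKM of 31.1 in the Lgr6+ cells. *Sox17* (chromosome 1, 4490928 to 4497354) had 0.0398 and 2.44, and *Sox7* was listed at 0 in the Lgr5+ cells and had 0.0829 in the Lgr6+ cells. All 3 SoxF genes thus had the higher value in the Lgr6+ cells. *Sox17* and *Sox18* passed the filter only through the Lgr6+ cells, which fixed their direction, and *Sox7* did not pass. Of 7 endothelial marker genes, all 7 passed the filter. Of these, 6 were at least 1.5-fold higher in Lgr6+ cells and 1 in Lgr5+ cells, against 28.5% and 23.3% of all kept genes. *Pecam1*, *Kdr* and *Tek* passed only through the Lgr6+ cells and *Tie1* only through the Lgr5+ cells, so the filter fixed their direction. The summed FPKM of the 7 genes was 22.2 in the Lgr5+ cells and 127 in the Lgr6+ cells. Among them, *Egfl7*, a protein secreted by endothelium, had 15.2 and 74.5, and *Cldn5*, a tight junction protein of endothelium, had 2.95 and 27.3. *Pecam1*, an endothelial adhesion protein, had 0.303 and 8.31, and *Cdh5*, the cadherin of endothelial junctions, had 1.24 and 10.1. The exception was *Tie1*, an endothelial receptor, with 2.09 and 0.999. The part of endothelial RNA in the SoxF values was not tested. *Sox1*, *Sox3*, *Sox15* and *Sry* were listed at 0 in both populations, and *Sox14* and *Sox30* stayed under 0.14 in both.

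In sorted cells measured in bulk, fewer cells of a type and less RNA per cell cannot be told apart. By immunostaining, the paper found Sox2 protein in most of the sorted cells of either population and the HC marker Myo7a in none. Such staining reads protein and gives no RNA level per cell. Markers of other cells differed between the populations beside the Sox genes. Of 11 HC marker genes 6 were at least 1.5-fold higher in the Lgr6+ cells and 0 in the Lgr5+ cells, with a summed FPKM of 1047 and 1486 in Lgr5+ and Lgr6+ cells. They include *Otof*, which is needed at the HC synapse, with 41.6 and 171, and the calcium buffer *Calb2*, with 27.6 and 165. *Gfi1*, an HC transcription factor, had 19.5 and 55.5, and *Myo7a*, a myosin of HCs, had 19.3 and 46.99. *Pvalb*, the most abundant gene of this list in both populations, had the higher value in the Lgr5+ cells, with 477 and 408, less than 1.5-fold apart. Transcripts of HC markers were thus present in both populations. Of 14 SC genes, 3 were 1.5-fold higher in each direction, with sums of 3958 and 3716, of which *S100a1* alone made up 2959 and 3177. Among all kept genes, 23.3% were higher in the Lgr5+ cells by 1.5-fold and 28.5% in the Lgr6+ cells. *Hes5* and *Hey2*, targets of Notch signalling, had 505 and 19.02 in the Lgr5+ cells against 91.7 and 3.48 in the Lgr6+ cells, whereas the glutamate transporter *Slc1a3* had 12.8 and 29.2. The sorting gene *Lgr5* had an FPKM of 9.65 in the Lgr5+ cells and 24.99 in the Lgr6+ cells, and *Lgr6* had 2.06 and 2.90. The Lgr5 transcript was therefore not higher in the population sorted by its reporter. The paper describes the Lgr6+ cells, a subset of the inner pillar cells, as part of the Lgr5+ progenitors, so the populations overlap. The part of HC transcripts in the lower *Sox2* value of the Lgr6+ cells was not tested.

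Of 9 Schwann cell and glial genes, the lineage of *Sox10*, 6 passed the filter, 3 of them 1.5-fold higher in the Lgr6+ cells and 1 in the Lgr5+ cells. Among all kept genes these shares were 28.5% and 23.3%. *Pmp22* passed only through its value in the Lgr6+ cells. The 9 genes summed to 626 in the Lgr5+ cells and 1642 in the Lgr6+ cells. Of these sums *Fabp7*, a fatty acid binding protein of glia that cochlear SCs also express, made up 446 and 1370.4. The myelin genes *Pmp22* and *Mbp* had 0.784 and 10.7 in the Lgr5+ cells and 64.5 and 67.4 in the Lgr6+ cells. *Egr2*, a factor of myelinating Schwann cells and an early response gene, had 62.5 and 19.7, and of the genes below the filter *Erbb3*, a receptor of Schwann cells, had 0.304 and 0.209. The markers of this lineage did not all have the higher value in the same population, and their part in the *Sox10* values was not tested. Of 8 macrophage genes 6 passed, all of them only through their value in the Lgr6+ cells, so the filter fixed their direction. They were at least 1.5-fold higher there, and the sums of the 8 genes were 1.47 and 229. *C1qb* and *C1qc*, which encode chains of complement C1q, and the adaptor *Tyrobp* were listed at 0 in the Lgr5+ cells and had 69.9, 47.1 and 43.02 in the Lgr6+ cells, and *Fcer1g*, an Fc receptor chain, had 0.354 and 51.1. Of 11 genes of mesenchyme and fibrocytes 6 were higher in the Lgr6+ cells by 1.5-fold and 1 in the Lgr5+ cells. Among all kept genes these shares were 28.5% and 23.3%. The sums of the 11 genes were 334 in the Lgr5+ cells and 886 in the Lgr6+ cells. *Igfbp7*, *Otos*, *Col1a2* and *Col3a1* had 4.59, 5.60, 15.8 and 5.07 in the Lgr5+ cells and 277.3, 248, 90.2 and 32.4 in the Lgr6+ cells. In the opposite direction, *Lum* was the gene higher in the Lgr5+ cells by 1.5-fold, with 179 and 101. *Dcn* had 91.8 and 74.9, less than 1.5-fold apart, and these genes were the most abundant of the list in the Lgr5+ cells. The part of macrophage and mesenchymal RNA in the Sox values was not tested.

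The prosensory genes around *Sox2*, a list of 16 genes that act with it, upstream or downstream of it, all passed the filter. Of these 7 were at least 1.5-fold higher in the Lgr5+ cells and 2 in the Lgr6+ cells. Among all kept genes these shares were 23.3% and 28.5%. The median difference of the list was -0.55. *Notch1*, the Notch receptor of the prosensory domain, had an FPKM of 42.1 in the Lgr5+ cells and 19.8 in the Lgr6+ cells. *Isl1*, a LIM homeodomain factor that is co-expressed with *Sox2* in the prosensory domain, had 233 and 117. The ligand *Bmp4* had 35.7 and 3.96, a difference of -2.89. In the opposite direction the ligand *Fgf20* had 0.956 and 13.8, a difference of 2.92. It was with *Lfng* 1 of the 2 genes higher in the Lgr6+ cells. *Fgf20* passed the filter only through the Lgr6+ cells, which fixed its direction. *Atoh1*, the factor that starts HC differentiation and that *Sox2* both prepares and restrains, had 30.9 and 36.4 and differed by 0.23, less than 1.5-fold. Among the 110 listed genes, those nearest to *Sox2* by distance on the log2(FPKM + 1) scale over the 2 populations were *Jag1*, at 107.5 and 59.2, *Hey1*, at 85.7 and 45.9, and *Dcn*, at 91.8 and 74.9. The distances were 0.39, 0.74 and 0.75, and a likeness over 2 values describes a level and a difference only.

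Genes known as targets of SoxC and SoxE factors were read in the same way. Of 4 SoxC target genes, 3 passed the filter, and *Tead2*, a TEAD factor of the Hippo pathway, had an FPKM of 112 in the Lgr5+ cells and 32.2 in the Lgr6+ cells, a difference of -1.77. *Tubb3*, a tubulin of neurons, had 1.18 and 0.0959 and passed only through the Lgr5+ cells, while *Map2*, a microtubule protein of neurons, had 6.57 and 14.8. The list thus held 2 genes higher in the Lgr5+ cells and 1 higher in the Lgr6+ cells. Among all kept genes these shares were 23.3% and 28.5%. Of 11 cartilage genes that *Sox9* drives with *Sox5* and *Sox6*, 8 passed the filter, with a median difference of -0.66. By 1.5-fold, 4 of them were higher in Lgr5+ cells and 1 in Lgr6+ cells, against 23.3% and 28.5% of all kept genes. The collagen genes *Col9a2* and *Col11a1* had 851 and 69.02 in the Lgr5+ cells and 444 and 38.3 in the Lgr6+ cells, and *Lect1*, the older symbol of chondromodulin, had 409.9 and 192. *Matn1*, a matrix protein of cartilage, was the gene in the opposite direction, with 8.74 and 31.2. *Hapln1* and *Comp*, which mark cartilage matrix, were listed at 0 in both populations and *Acan* at 0 in the Lgr5+ cells and at 0.180 in the Lgr6+ cells. Whether the collagen genes follow the Sox values in these cells was not tested.

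**Figure D4:**
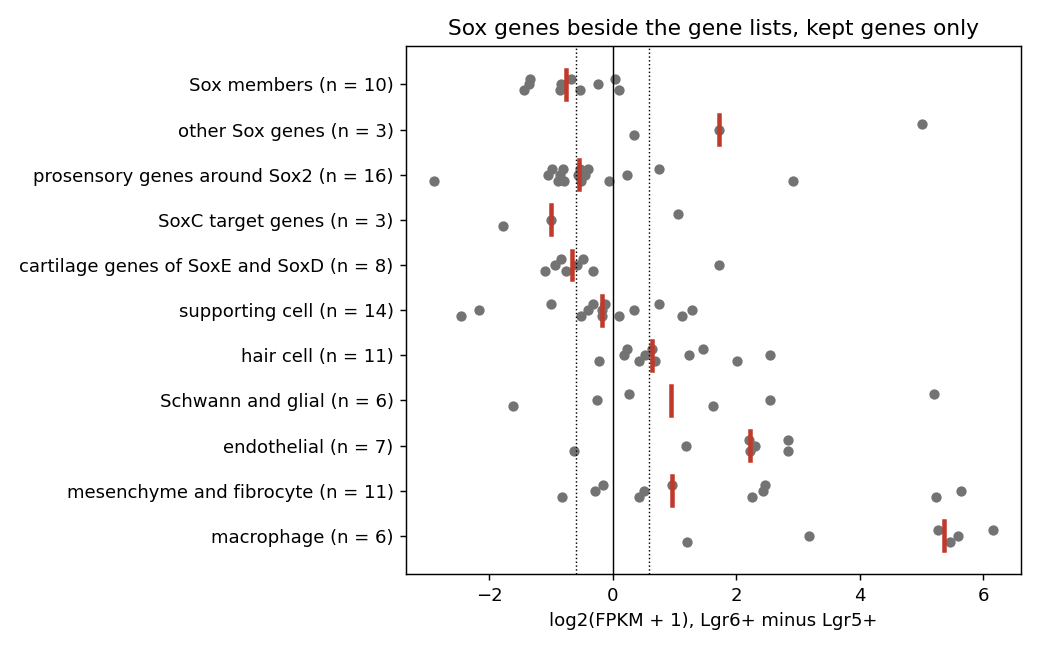
Difference in log2(FPKM + 1), Lgr6+ minus Lgr5+, of each kept gene (points) among the 10 Sox genes, the other Sox genes and 9 lists, with a bar at the median of each list and dotted lines at 1.5-fold. The Sox members have a median of -0.76 and the prosensory list of -0.55, whereas the HC list has a median of 0.64 and the endothelial list of 2.22.

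The sequence just upstream of an annotated start site was read for the 9 of the 10 genes that have a window in RefSeq (GRCm38.p6). The only window of *Sox5*, chr6:143947107-143947356 on the minus strand, lies inside the interval of the gene, which ends at 144209568 in the table. The sequence before the start at that end was therefore not read. Of the 6 genes that were at least 1.5-fold higher in the Lgr5+ cells, the 4 shown were picked after the matches were seen because their windows hold CCAAT. The windows read for *Sox5* and *Sox13* do not. The 250 bases before the start are given 5′ to 3′ on the strand of the gene. Capitals mark CCAAT and its reverse complement ATTGG, the motif of the factor NF-Y.
*Sox2*, chr3:34649745-34649994, plus strand: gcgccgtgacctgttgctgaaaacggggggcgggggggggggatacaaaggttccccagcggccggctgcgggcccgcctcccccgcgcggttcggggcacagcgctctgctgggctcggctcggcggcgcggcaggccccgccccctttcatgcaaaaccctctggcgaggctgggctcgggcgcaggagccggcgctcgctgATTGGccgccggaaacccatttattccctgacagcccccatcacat
*Sox4*, chr13:28953700-28953949, minus strand: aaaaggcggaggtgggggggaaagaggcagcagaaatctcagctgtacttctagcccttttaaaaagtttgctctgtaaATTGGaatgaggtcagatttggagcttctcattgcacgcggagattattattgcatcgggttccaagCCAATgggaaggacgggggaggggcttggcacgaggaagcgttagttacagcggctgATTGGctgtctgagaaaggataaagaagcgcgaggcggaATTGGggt
*Sox11*, chr12:27342719-27342968, minus strand: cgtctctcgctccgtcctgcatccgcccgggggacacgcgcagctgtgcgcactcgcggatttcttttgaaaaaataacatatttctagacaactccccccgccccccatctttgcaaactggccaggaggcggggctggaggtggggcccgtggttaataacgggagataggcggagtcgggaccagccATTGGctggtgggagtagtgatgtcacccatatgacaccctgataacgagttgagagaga
*Sox12*, chr2:152398047-152398296, minus strand: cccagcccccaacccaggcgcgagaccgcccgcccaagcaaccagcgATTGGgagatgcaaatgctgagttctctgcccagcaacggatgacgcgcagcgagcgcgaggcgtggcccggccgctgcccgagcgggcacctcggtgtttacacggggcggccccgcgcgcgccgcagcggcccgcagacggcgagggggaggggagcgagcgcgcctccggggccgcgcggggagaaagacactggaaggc

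The motif CCAAT, on either strand, was present once each in *Sox2*, *Sox11* and *Sox12*, at 4 places in *Sox4*, and in 2 of the 6 windows of *Sox6*. It was not found in the windows of *Sox8*, *Sox13* and *Sox21*, nor in the internal window of *Sox5*. Of all 32851 windows of this length, 33.8% hold it. The SOX motif ACAAT was found in windows of *Sox5* and *Sox6* and ACAAAG in those of *Sox2* and *Sox6*, against 27.7% and 16.5% of all windows. TGGGAA, a core of the sites of the Notch effector RBPJ, was found in *Sox4* and *Sox13*, against 21.6% of all windows. The motif in capitals was likewise picked with the matches known. The GC content of the windows was 72.0% for *Sox2*, 50.8% for *Sox4*, 58.0% for *Sox11* and 74.4% for *Sox12*, and the median of all windows was 52.4%.

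The FPKM values of all genes summed to 754163 in the Lgr5+ cells and 627932 in the Lgr6+ cells. When both were rescaled to the same sum, the difference of all kept genes shifted to a median of 0.28 and that of the 10 Sox genes to -0.51, so relative to all kept genes the Sox genes differed by -0.79 on either scale. The table gives no counts, but low FPKM values multiplied by transcript length in kilobases fall on steps. The step was 0.128 in the Lgr5+ cells and 0.0403 in the Lgr6+ cells, a ratio of 3.19. Whether a step is 1 fragment is not known. *Sox8*, the lowest member, corresponded to 24.0 and 87.9 such steps, and *Sox9* to 1647 and 3628. Counting error therefore weighs more on *Sox8* than on *Sox9*.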

How the data were processed

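RNA-Seq of Lgr5+ and Lgr6+ cells was analysed from the deposited table. The authors made SMART-Seq v4 libraries from sorted cells, and the processing notes list Trimmomatic, TopHat and Cufflinks, and the deposited FPKM is 1 value per gene and population. Program versions are not given in the sources used here. The methods name mm9 and the submitters' processing notes mm10. Of 19493 gene symbols, 99.1% of the intervals in the table overlapped the gene in GRCm38 and 12.7% in NCBIM37, so positions are read as GRCm38, with starts converted to count from 1. The table also holds the authors' fold changes, *p*-values and *q*-values, which were not used.

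Genes that reached an FPKM of 1 in one or both populations were kept, and log2(FPKM + 1) was compared between populations against a 1.5-fold threshold. A kept gene under 1 in one population is therefore higher in the other by the filter itself, and such genes add to the counts of the lists. The members and lists were chosen with earlier results of these data known, and some genes, such as *Isl1*, stand on 2 lists. Genes named were the 10 members, the other Sox genes, up to 4 genes with the largest difference per list, markers at 0 in both populations, *Lgr5* and *Lgr6*, and the 3 listed genes nearest to *Sox2*. *Atoh1*, *Lfng*, *Erbb3*, *Tie1*, *Acan*, *S100a1*, *Pvalb*, *Lum* and *Sox2ot* were added after their values were seen. Steps of low values were read from 7864 genes with 1 coding transcript, less 200 bases of length. Alternatives were a pseudocount of 0.1, no filter, a minimum of 5, quantile normalization, a common upper quartile, a common sum, the plain ratio of FPKM and a 2-fold threshold. Python 3.11.15 was used with numpy 2.4.6, pandas 2.3.3, Biopython 1.88 and matplotlib 3.10.9. The calls and scalings were tested on simulated data. Coding sequences came from GENCODE M1. One gene of the glial list is not reported here, and the values of that list leave it out.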

Additional observations from a re-analysis of the deposited data

How the results depend on the processing

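The number of Sox genes at least 1.5-fold higher in the Lgr5+ cells was 6 at a pseudocount of 0.1, without a filter, at a minimum FPKM of 5, after quantile normalization, with a common upper quartile and by the plain ratio. It was 5 with equal sums, which left *Sox13* at -0.43, and 3 at 2-fold. Asking for an FPKM of 1 in each population, which was added after seeing the data, also gave 6, against 22.5% of the 11177 genes kept. The number higher in the Lgr6+ cells was 0 under each of these alternatives. The median difference ranged from -0.84 at a minimum FPKM of 5, which drops *Sox8*, to -0.51 with equal sums, where 17.0% of all kept genes were higher in the Lgr5+ cells and 37.8% in the Lgr6+ cells. For single genes, 75 differences kept their sign and their side of the threshold, and 4 did not, one of them that of *Sox13*. The settings without a filter, with a minimum FPKM of 5 and with an FPKM of 1 in each population change only which genes are kept. They could not move the difference of a gene, yet their values are counted among the 75. The 6 genes pass each of these settings, so they are no check on either result. *Sox6* and *Sox8* turned to -0.13 and -0.31 after quantile normalization and *Sox21* to 0.03 with equal sums. *Sox2*, *Sox4* and *Sox5* stayed between -1.08 and -1.61 throughout.

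No paired analysis was possible because the deposited values combine the libraries of each population. Leaving out single libraries was not possible for the same reason. The depth of single libraries is not known.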

Other observations

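Of 9 neuronal genes, 8 passed the filter, with 2 at least 1.5-fold higher in the Lgr5+ cells and 3 in the Lgr6+ cells. Among all kept genes these shares were 23.3% and 28.5%. *Ntrk3* and *Prph* passed only through the Lgr6+ cells. The summed FPKM of the 9 genes was 348 and 257. *Isl1*, which is also on the prosensory list, had 233 and 117 of these sums. *Snap25*, a protein of synaptic vesicle fusion, had 7.63 in the Lgr5+ cells and 53.4 in the Lgr6+ cells, the neurotrophin receptor *Ntrk3* was listed at 0 and had 7.62, and the neuronal filament gene *Prph* was listed at 0 and had 1.04. Of 5 melanocyte genes, another lineage of *Sox10*, 2 passed the filter. *Mitf*, which *Sox10* activates, had 1.18 in the Lgr5+ cells and 0.121 in the Lgr6+ cells, and the pigment cell gene *Pmel* had 0.318 and 3.03, while *Tyrp1* was listed at 0 in both.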
